A study of Mus musculus with 2 samples.

Results

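Hopx, Bmi1, Lrig1 and Mex3a are genes that have been used to mark reserve, or +4, stem cells of the intestinal crypt. They were chosen by name, and each symbol matched 1 of the 27998 genes counted, so the group holds 4 genes. They were measured by single-cell RNASeq in ileal epithelium of C57BL/6 mice aged 8 weeks, in 1 library of WT cells and 1 library of TNFAIP8-/- cells, each made from the pooled cells of 3 mice. TNFAIP8-/- mice lack TNFAIP8, a lipid transfer protein also called TIPE0. The labels name no other allele and no treatment of the mice. They call the digested material enteroids and the cells enterocytes, whereas the methods describe enterocytes isolated from the ileum.

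The crypt holds Lgr5+ stem cells at its base, between the Paneth cells, which divide daily and renew the epithelium. Reserve stem cells were first described as rarely dividing cells just above them, able to rebuild the crypt after the Lgr5+ cells are lost. Later work found transcripts of several reserve markers in Lgr5+ cells as well, and committed secretory and absorptive precursors can return to the stem cell state. The 4 genes have different functions. HOPX is a small homeodomain protein that does not bind DNA and works with SRF and HDAC2. BMI1 is a subunit of Polycomb repressive complex 1 and a repressor of the Cdkn2a locus. LRIG1 is a membrane protein that restrains ErbB receptors, and MEX3A is an RNA-binding protein reported in a slowly dividing part of the Lgr5+ cells.

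In the GRCm38 assembly (mm10), Hopx (ENSMUSG00000059325) spans chr5:77086988-77115121 on the minus strand and Bmi1 (ENSMUSG00000026739) spans chr2:18677018-18686629 on the plus strand. Lrig1 (ENSMUSG00000030029) spans chr6:94604529-94700158 on the minus strand and Mex3a (ENSMUSG00000074480) spans chr3:88532395-88541396 on the plus strand. On the opposite strand, Hopxos shares 412 exon bases with Hopx, Slc25a26 shares 144 with Lrig1 and Mir1905 shares 82 with Mex3a. Whether the counting used strand is not given in the sources used here, so reads from these partners could not be told apart from this annotation alone. The counts held 21 WT and 33 TNFAIP8-/- UMIs of Hopxos and 177 and 139 of Slc25a26.

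The promoters of 3 of the genes are shown because Lrig1 and Mex3a had their highest levels in the same cells while Bmi1 was spread over all of them. Hopx, also highest in the cells of Lrig1 and Mex3a, is described without its sequences. Each RefSeq sequence (GRCm38.p6) holds 250 bases before and 50 bases after the annotated start, 5′ to 3′ on the gene's strand. Capitals mark matches, on either strand, to GGGCGG (a box bound by SP factors) or CACGTG (an E-box). Mex3a starts further upstream in RefSeq than in the GENCODE span above.
Lrig1, chr6:94700096-94700395, minus strand: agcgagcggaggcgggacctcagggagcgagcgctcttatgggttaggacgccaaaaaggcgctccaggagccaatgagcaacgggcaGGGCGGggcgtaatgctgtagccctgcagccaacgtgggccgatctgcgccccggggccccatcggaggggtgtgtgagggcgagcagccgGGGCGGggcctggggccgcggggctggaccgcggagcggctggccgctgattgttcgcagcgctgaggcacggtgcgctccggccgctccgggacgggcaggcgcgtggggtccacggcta
Mex3a, chr3:88531696-88531995, plus strand: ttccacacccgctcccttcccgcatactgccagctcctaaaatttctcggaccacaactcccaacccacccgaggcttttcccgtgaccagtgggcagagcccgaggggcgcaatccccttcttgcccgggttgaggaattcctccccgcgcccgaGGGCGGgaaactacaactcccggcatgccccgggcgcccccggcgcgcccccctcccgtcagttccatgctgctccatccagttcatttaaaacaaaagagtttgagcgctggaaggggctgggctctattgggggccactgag
Bmi1, chr2:18676768-18677067, plus strand: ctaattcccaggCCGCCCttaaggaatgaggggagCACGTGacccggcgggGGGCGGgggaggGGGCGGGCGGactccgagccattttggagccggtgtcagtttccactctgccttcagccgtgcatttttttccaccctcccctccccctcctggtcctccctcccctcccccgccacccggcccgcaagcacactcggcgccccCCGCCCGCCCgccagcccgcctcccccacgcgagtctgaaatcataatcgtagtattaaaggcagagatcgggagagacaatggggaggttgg
All of them were rich in G and C, with 73.0% in Lrig1, 63.0% in Mex3a and 66.3% in Bmi1 against a median of 52.7% over 32851 promoters of this length. GGGCGG occurred 2 times in Lrig1, 1 time in Mex3a and 6 times, partly overlapping, in Bmi1, and 35.7% of all promoters held it. CACGTG occurred once in Bmi1, and 7.15% of all promoters held it. The TCF/LEF motifs CTTTGAT and CTTTGAA, of which 8.65% of all promoters held at least 1, and the E-box CAGCTG, found in 16.3%, had no match in these 3 windows. Hopx has a pair of annotated starts, whose windows held CACGTG and CAGCTG, respectively, and no GGGCGG. Their G and C made up 59.0% and 53.0%, nearer to the median of all promoters. The motifs were chosen after the levels of the genes had been seen.

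The WT library held 3402 cells and 38127808 UMIs and the TNFAIP8-/- library 2006 cells and 23897126 UMIs, with medians of 7760 and 7307.5 UMIs per cell. No cell had fewer than 3247 UMIs, and the libraries shared 9 cell barcodes. Tnfaip8 had 372 UMIs in WT and 57 in TNFAIP8-/- cells, a log2 ratio of -2.02 (-2.46 to -1.63). The library labelled TNFAIP8-/- was thus lower in the targeted gene without lacking it, and whether the counted 3′ ends lie in the deleted part is not given in the sources used here. Although the labels name enterocytes, enterocyte-like cells made up 18.1% of WT and 15.0% of TNFAIP8-/- cells, beside dividing and stem-like cells, secretory lineages and cells given no name. Clusters were named from marker genes, without the 4 genes, as stem-like (led by Lgr5), S phase-like, mitotic-like, goblet-like, Paneth-like, tuft-like, enterocyte-like and lymphocyte-like. A pair of clusters led by Slc40a1 and by Akr1c19 and Gsdmc3 stayed unnamed and held 13.8% of WT and 12.0% of TNFAIP8-/- cells. Lymphocyte-like cells, with T and B cell markers, made up 2.70% of WT and 0.847% of TNFAIP8-/- cells. Outside them, the summed level of 15 lymphocyte markers ranged over the classes from 64.0 to 298.2 CPM in WT and from 13.9 to 137.7 CPM in TNFAIP8-/- cells, lower in the latter in every class. Mitochondrial genes took 6.59% of WT and 8.56% of TNFAIP8-/- UMIs. The part of either in the ratios between the libraries was not tested. Without the lymphocyte-like cells, the ratios were 0.34 for Hopx, 0.30 for Bmi1, 0.27 for Lrig1 and -0.32 for Mex3a. Lymphocyte transcripts in the other classes were not removed for these values.

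Levels are given as UMIs per 1000000 UMIs of the same cells (CPM) with the 95% Poisson interval. Ratios are TNFAIP8-/- over WT on the log2 scale, with 0.5 added to each sum and an exact binomial 95% interval. With 1 library per genotype there are no replicates, so no difference between genotypes could be tested, and all intervals cover counting error only.

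Lrig1 had its highest level in the stem-like cells. Its level there was 73.6 CPM (63.4 to 84.9) in WT and 64.2 CPM (54.6 to 74.9) in TNFAIP8-/- cells. Over both libraries this was 3.47 times (3.07 to 3.92) the level of all other cells. The S phase-like cells were next, with 33.6 and 32.3 CPM, followed by goblet-like cells with 24.9 and 26.8 CPM and mitotic-like cells with 26.0 and 20.9 CPM. From goblet-like through mitotic-like, Paneth-like and tuft-like to lymphocyte-like cells, no class was apart from its neighbour in the order, although the pooled levels of goblet-like cells, 25.7 CPM (23.4 to 28.2), and Paneth-like cells, 20.3 CPM (17.6 to 23.2), had separate intervals. Enterocyte-like cells had the lowest level, 3.39 CPM in WT and 4.26 CPM in TNFAIP8-/- cells. The level of Lrig1 was thus lowest in the mature absorptive cells, and so few UMIs there were not read as expression. The goblet-like cells, a larger class, held more of the UMIs of Lrig1 than the stem-like cells. The parts were 28.6% in WT and 32.5% in TNFAIP8-/- goblet-like cells, against 22.1% and 25.1% in stem-like cells. Of all UMIs, goblet-like cells held 25.3% and 32.3%, near their parts of Lrig1, and stem-like cells held 6.63% and 10.4%. These parts of Lrig1 were not recomputed with other clusterings, as was done for Hopx below.

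Mex3a had the steepest gradient of the 4 genes. The stem-like cells held 24.1 CPM (18.5 to 31.0) in WT and 16.8 CPM (12.1 to 22.8) in TNFAIP8-/- cells, 5.54 times (4.34 to 7.05) the level of the other cells over both libraries. They made up 8.10% of all UMIs but 32.8% of those of Mex3a. Tuft-like cells followed with 13.2 CPM (8.79 to 19.1) in WT and 6.75 CPM (2.71 to 13.9) in TNFAIP8-/- cells. They could not be ordered against the S phase-like cells, which held 8.75 and 3.73 CPM. In enterocyte-like cells a single UMI of Mex3a was found in WT and none in TNFAIP8-/- cells, where 3 UMIs would have given 1.28 CPM. Mex3a was therefore at or under the limit of detection in those cells.

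Hopx was highest in the stem-like cells too, but with a shallower gradient. Its levels there were 46.7 CPM (38.6 to 55.9) in WT and 42.9 CPM (35.2 to 51.9) in TNFAIP8-/- cells, 2.35 times (2.02 to 2.71) the level of the other cells. Tuft-like cells held 31.2 and 38.6 CPM and S phase-like cells 26.3 and 35.4 CPM, and goblet-like cells 25.2 and 27.5 CPM. Neighbours among these 3 classes were not apart beyond counting error. The goblet-like cells, the most numerous class, contained the largest part of the UMIs of Hopx, 33.3% in WT and 36.2% in TNFAIP8-/- cells, against 16.2% and 18.3% in stem-like cells. This part depended on the naming of clusters. At resolution 1.2 it was 13.7% and 11.6%, and mitotic-like cells held the most, and with variable genes chosen by vst it was 10.4% and 8.72%, and S phase-like cells held the most. The parts in stem-like cells were then 5.35% and 5.64%, and 4.80% and 5.64%, respectively. At both settings a further cluster led by Lgr5 was named mitotic-like. Most of the UMIs of Hopx in goblet-like cells came from the goblet-like cluster led by Creb3l1, Ccl9 and Spdef. It also expressed Dll1, the Notch ligand of secretory precursors. Its mean marker score was 0.656 for goblet cells and, next highest, 0.45 for mitotic cells, and its median was 15921 UMIs per cell. This cluster held 29.95 and 32.4 CPM of Hopx. Both other goblet-like clusters were led by the mucus genes Zg16, Clca1 and Fcgbp. The one with a median of 12682 UMIs per cell held 8.29 and 4.41 CPM, and the one with a median of 5016 UMIs held 21.8 CPM (14.3 to 32.0) and 14.1 CPM (6.78 to 26.0). Hopx was thus lower in both clusters led by mucus genes, with overlapping intervals in WT for the shallower one. Lrig1 had 32.2 and 31.0 CPM in the first cluster, against 6.52 and 7.72 CPM and 9.24 and 15.6 CPM in the others. Enterocyte-like cells had 2.82 and 5.54 CPM of Hopx.

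**Figure D1:**
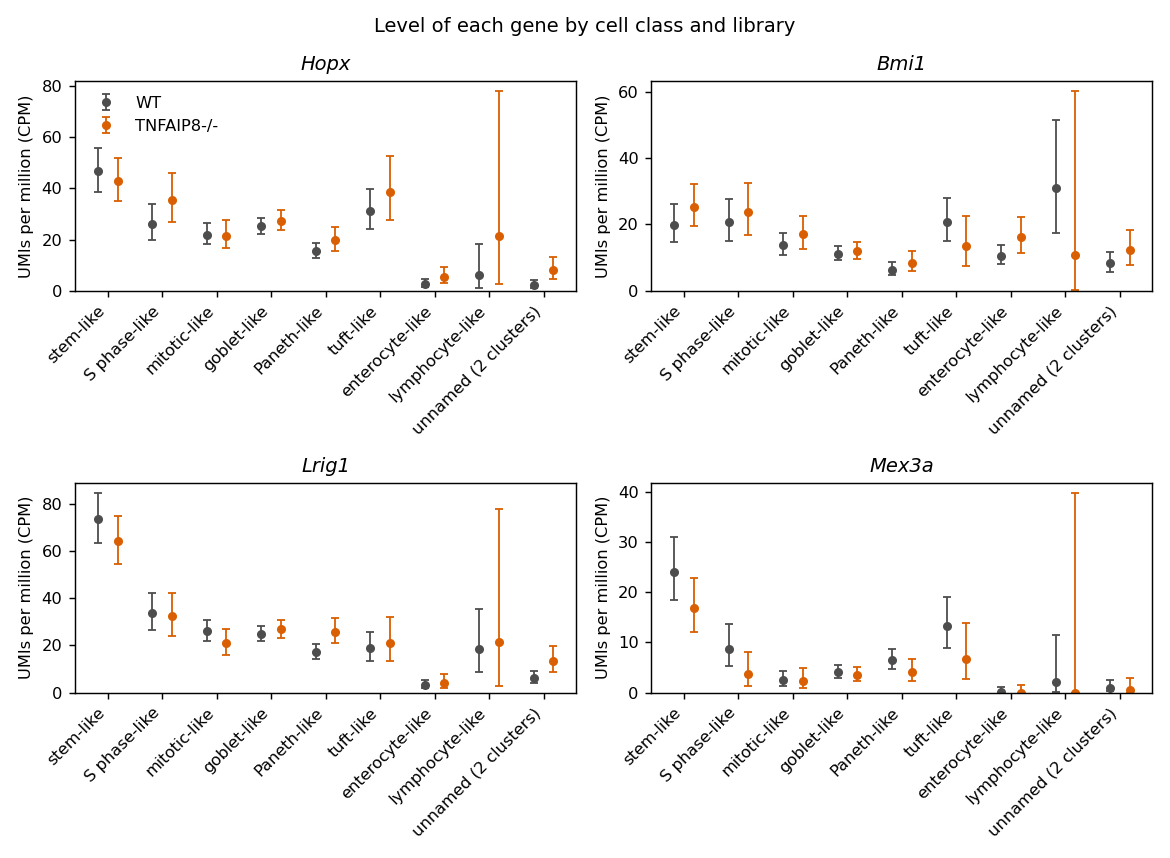
Level of Hopx, Bmi1, Lrig1 and Mex3a (y axes, CPM) by cell class (x axes), with WT in grey, TNFAIP8-/- in orange and bars for 95% Poisson intervals. Lrig1 reached 73.6 and 64.2 CPM and Mex3a 24.1 and 16.8 CPM in stem-like cells, above all other classes, while Bmi1 had no such peak. The 17 lymphocyte-like cells of the TNFAIP8-/- library gave very wide intervals.

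Bmi1, by contrast, had UMIs in all classes, at more even levels in this clustering. In stem-like cells it had 19.8 CPM (14.7 to 26.1) in WT and 25.3 CPM (19.4 to 32.3) in TNFAIP8-/- cells, 1.82 times (1.48 to 2.22) the level of the other cells. S phase-like cells had 20.7 and 23.6 CPM, close to these values. The lowest level, in Paneth-like cells, was still 6.42 and 8.54 CPM. The highest pooled level, 27.9 CPM (15.9 to 45.2), was that of the lymphocyte-like cells and rested on 16 UMIs. When the classes were ordered by level over both libraries, no pair of neighbours was separated beyond counting error. Enterocyte-like cells held 10.5 and 16.2 CPM, in the middle of this order, whereas they were last in the order of each of the other 3 genes. Bmi1 thus marked no single class in these data. Its contrast with Hopx depended on the clustering. With variable genes chosen by vst, the stem-like level over that of the other cells was 2.49 times for Bmi1 and 2.08 times for Hopx. The stem-like class then held 143 WT and 137 TNFAIP8-/- cells, and another cluster led by Lgr5 was counted among the other cells.

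Enteroendocrine-like cells did not separate at these settings, and did so only when variable genes were chosen by the vst method. These 65 cells, led by Gcg, Chgb and Ghrl, held 64.8 CPM (49.2 to 83.8) of Lrig1, 40.2 CPM (28.2 to 55.7) of Hopx and 30.2 CPM (19.9 to 43.9) of Bmi1. Their 10 UMIs of Mex3a gave 11.2 CPM (5.36 to 20.5). The levels of Lrig1 and Hopx overlapped those of the stem-like cells of the clustering used above, 68.9 CPM (61.8 to 76.6) and 44.8 CPM (39.1 to 51.1) over both libraries. These groups come from different clusterings, and whether they share cells was not examined. These values therefore do not show whether high levels of these genes also lay outside the Lgr5-led cluster.

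**Figure D2:**
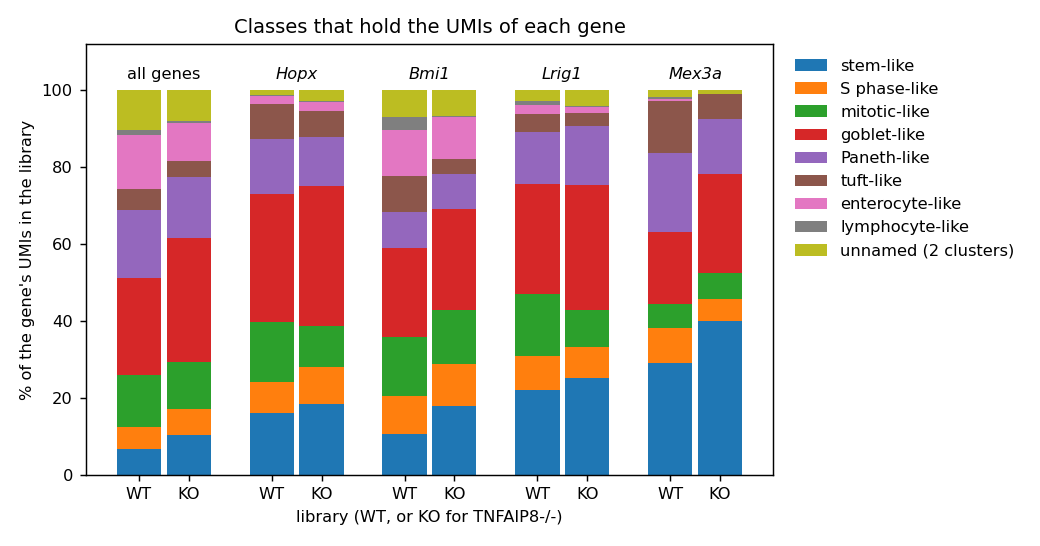
Share of the UMIs of all genes and of each of the 4 genes that lay in each cell class (y axis, % of the library's UMIs of that gene), with a bar for each library. Stem-like cells held 6.63% of all UMIs in WT but 29.2% of those of Mex3a and 22.1% of those of Lrig1. Goblet-like cells held 25.3% of all WT UMIs. In this clustering they held the largest WT part of Hopx (33.3%), Lrig1 (28.6%) and Bmi1 (23.2%).

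At the depth of these libraries, single cells gave few UMIs of any of the 4 genes. In WT cells with at least 1 UMI, 81.5% had exactly 1 UMI of Hopx, 90.8% of Bmi1, 74.9% of Lrig1 and 82.8% of Mex3a. The highest count in a cell was 6 UMIs, of Hopx. Cells with a UMI of Hopx had a median depth of 15403.5 UMIs in WT, against 6790.5 in cells without one. Detection in a cell therefore depended on its depth, and shares of cells are given at an equal depth of 3000 UMIs drawn at random from every cell.

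In stem-like cells, 18.3% of WT and 17.0% of TNFAIP8-/- cells kept a UMI of Lrig1 after thinning, against 1.13% and 0.667% of enterocyte-like cells, whose median depths were 6708 and 5761 UMIs. The stem-like cells had medians of 6193 and 6747 UMIs. For Hopx the shares were 11.8% and 10.7% of stem-like and 0.810% and 1.33% of enterocyte-like cells. For Mex3a they were 7.19% and 3.56% of stem-like cells, with 1 WT enterocyte-like cell. For Bmi1 they were 7.84% and 7.91% of stem-like and 2.43% and 5.33% of enterocyte-like cells. The shares of Lrig1, Hopx and Mex3a were thus far above those of the mature absorptive cells in both libraries, and that of Bmi1 less so. Among all classes, stem-like cells had the highest share in both libraries for Lrig1 and Mex3a only. For Hopx, WT tuft-like cells had 12.7% (7.91 to 18.9), above WT stem-like cells, whereas TNFAIP8-/- tuft-like cells were below TNFAIP8-/- stem-like cells. For Bmi1, lymphocyte-like cells had 10.9% in WT and 5.88% in TNFAIP8-/- cells, and S phase-like cells 6.69% and 8.33%.

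The genes that followed each of the 4 most closely were found by Pearson's r of log2(CPM + 10) over 25 sums of cells, each of 1 cluster in 1 library with at least 30 cells. Clusters of 1 library share its depth and processing, so these values are descriptive. Among 7957 other genes with at least 500 UMIs, Hopx was most like Zfhx3 (r = 0.946), Sox9 (0.926), Adra2a (0.919), Arhgef28 (0.914) and Gstm1 (0.908). Lrig1 was most like Igf1r (0.953), the receptor of insulin-like growth factor 1, followed by Efna4 (0.9496), Cdk6 (0.943), Sox4 (0.941) and Slc27a2 (0.941). Cdk6 is itself one of the markers used to name the stem-like cluster. Mex3a, compared with 7958 genes since its own UMIs fell short of 500, was most like Dcun1d4 (0.909), Adra2a (0.902), Mcc (0.896), Sox4 (0.895) and Slco3a1 (0.893). Bmi1 was most like Suz12 (0.886), a subunit of Polycomb repressive complex 2, then Atf7ip (0.872), Phip (0.866), Smc5 (0.860) and Serinc5 (0.859).

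Between the 4 genes, the profiles of Hopx and Lrig1 (r = 0.876) and of Lrig1 and Mex3a (r = 0.832) were the most alike. Bmi1 was less like each of the others, with r from 0.410 with Hopx to 0.553 with Lrig1. With Lgr5, r was 0.886 for Mex3a, 0.841 for Lrig1, 0.705 for Hopx and 0.508 for Bmi1.

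It was next asked whether single cells held several of the genes. Among all thinned cells, 84.2% of WT and 83.1% of TNFAIP8-/- cells had a UMI of none of the 4 genes, 1.88% and 1.89% had 2 of them and 4 and 2 cells had 3. No cell had all 4. In WT, Lrig1 was found in 17 of 61 cells with Mex3a (27.9%) and in 5.99% of cells without it, a difference of 21.9 percentage points (12.2 to 34.2, Newcombe interval). In TNFAIP8-/- cells it was found in 5 of 20 cells with Mex3a and in 6.90% of those without it, a difference of 18.1 points (4.24 to 40.0). Lrig1 was also more often found with Hopx than without it, by 8.09 points (3.66 to 14.01) in WT and 7.81 points (2.57 to 15.1) in TNFAIP8-/- cells. Lgr5 was found in 18.4% of WT cells with Lrig1 and 6.72% without it, and in 19.7% and 9.60% of TNFAIP8-/- cells. Not all pairs were resolved. Mex3a differed by 1.07 points (-0.611 to 4.69) in WT and 1.496 points (-0.174 to 5.93) in TNFAIP8-/- cells between cells with and without Hopx. Lgr5 differed by 6.94 points (2.49 to 12.9) and 5.21 points (-0.236 to 12.6) for Hopx. All of these values are over a population that mixes the classes.

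Within the stem-like cells alone these differences were mostly not resolved. Lrig1 was found in 31.8% of the 22 WT cells with Mex3a and in 17.3% of those without it, a difference of 14.6 points (-1.63 to 35.8), and in TNFAIP8-/- cells the difference was 16.9 points (-4.95 to 48.5). Lrig1 differed by 1.30 points (-9.62 to 17.4) between WT stem-like cells with and without Hopx. Lgr5 differed by -9.44 points (-24.3 to 7.88) in WT and -12.4 points (-29.8 to 7.28) in TNFAIP8-/- stem-like cells with Hopx. Bmi1 gave the exceptions, with Lgr5 in 16 of 24 WT stem-like cells with Bmi1 and in 42.6% of those without it (24.1 points, 3.32 to 40.5), against -7.36 points (-27.6 to 14.4) in TNFAIP8-/- cells. Conversely, Lrig1 was more frequent with Bmi1 in TNFAIP8-/- stem-like cells by 19.6 points (1.89 to 41.6), and differed by -1.77 points (-12.9 to 17.8) in WT. These values rest on 20 to 24 cells with Bmi1 in each library and on 1 draw of the thinning.

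**Figure D3:**
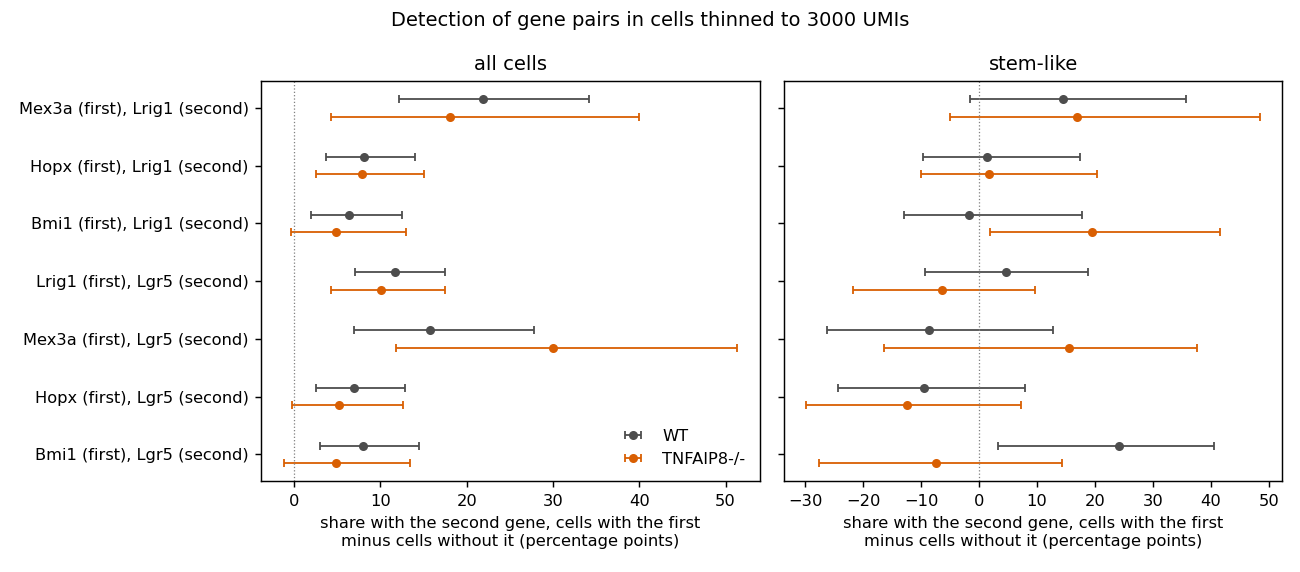
Difference in the share of cells with the second gene between cells with and without the first (x axes, percentage points, with 95% Newcombe intervals), for 7 gene pairs in all cells (left) and in stem-like cells (right), with WT in grey and TNFAIP8-/- in orange. Lrig1 was 21.9 and 18.1 points more frequent in cells with Mex3a over all cells, and most intervals in stem-like cells included 0.

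Because reserve stem cells are described as slowly dividing, Mki67, a gene expressed in dividing cells, was compared in the same way. Over all WT cells, Mki67 was found in 26.4% of those with Hopx and 13.1% of those without it, and in 25.8% and 12.9% for Lrig1. In WT cells with Mex3a the share was 29.5%, against 13.5% without it. In TNFAIP8-/- cells the difference was 10.4 points (3.57 to 18.4) for Lrig1, and 3.95 points (-2.49 to 12.0) for Hopx. Within WT stem-like cells, Mki67 differed by 13.9 points (0.616 to 27.9) for Lrig1, -2.22 points (-15.5 to 14.8) for Hopx, -5.14 points (-19.3 to 15.4) for Bmi1 and 7.14 points (-10.4 to 28.4) for Mex3a. In TNFAIP8-/- stem-like cells the difference was 4.35 points (-10.1 to 20.4) for Lrig1, -0.295 points (-16.3 to 19.4) for Hopx, -9.34 points (-24.5 to 13.3) for Bmi1 and 11.2 points (-15.0 to 40.7) for Mex3a. Mki67 was thus not less frequent beyond counting error in cells with one of the 4 genes. The values over all cells mix dividing and other classes, and the intervals in stem-like cells were wide. Whether these cells divide slowly could therefore not be judged from Mki67. The summed level of 10 mitotic genes gave no single direction. In stem-like cells with Lrig1 over those without it, its log2 ratio was -0.05 (-0.24 to 0.14) in WT and 0.37 (0.16 to 0.57) in TNFAIP8-/- cells after thinning, and -0.28 (-0.37 to -0.19) and 0.05 (-0.04 to 0.15) without thinning. For Bmi1 it was 0.18 (-0.08 to 0.43) and 0.05 (-0.27 to 0.34) after thinning, and 0.15 (0.03 to 0.26) and -0.34 (-0.45 to -0.23) without it. For Hopx it was -0.03 (-0.27 to 0.19) and 0.38 (0.12 to 0.61) after thinning, and -0.01 (-0.10 to 0.08) and 0.13 (0.03 to 0.23) without it.

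Compared between the libraries, Hopx, Bmi1 and Lrig1 had higher levels in TNFAIP8-/- cells, as had 69.3% of the 11665 genes with at least 50 UMIs. Mex3a had a lower value, with an interval that included 0. Hopx had 729 UMIs in WT and 585 in TNFAIP8-/- cells, 19.1 CPM (17.8 to 20.6) and 24.5 CPM (22.5 to 26.6), a log2 ratio of 0.36 (0.20 to 0.52). Bmi1 had 466 and 352 UMIs, 12.2 CPM (11.1 to 13.4) and 14.7 CPM (13.2 to 16.4), with a log2 ratio of 0.27 (0.07 to 0.47). Lrig1 had 840 and 637 UMIs, 22.0 CPM (20.6 to 23.6) and 26.7 CPM (24.6 to 28.8), with a log2 ratio of 0.28 (0.12 to 0.43). These ratios correspond to levels 1.28, 1.21 and 1.21 times those of WT. Mex3a had 209 and 105 UMIs, 5.48 CPM (4.76 to 6.28) and 4.39 CPM (3.59 to 5.32), and the interval of its log2 ratio, -0.32 (-0.67 to 0.03), included 0.

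Over the 11665 genes with at least 50 UMIs, the median log2 ratio was 0.15, and 6.22% of genes lay 0.5 or more above the median and 8.51% lay 0.5 or more below it. None of the 4 genes was past either distance. Relative to the median, Hopx was at 0.20, Bmi1 at 0.12, Lrig1 at 0.12 and Mex3a at -0.47. Mex3a was therefore just inside the distance. Without the 10 cells of each library richest in Mex3a it was at -0.56. These cells held 11.96% of its UMIs in WT and 18.1% in TNFAIP8-/- cells. Leaving them out thus lowers the ratio by itself, and nothing was read from this value.

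The makeup of the libraries differed as well. Stem-like cells made up 8.99% (8.05 to 10.0) of WT and 12.6% (11.2 to 14.1) of TNFAIP8-/- cells, and 6.63% and 10.4% of the UMIs. Tuft-like cells made up 4.64% of WT and 2.49% of TNFAIP8-/- cells. When both libraries were given the same makeup of classes, the log2 ratio was 0.20 for Hopx and 0.08 for Lrig1, and stayed at 0.23 for Bmi1. That of Mex3a was then -0.56. No interval and no all-gene median were computed at equal makeup, and the part of makeup in these ratios was not tested.

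Within the stem-like cells, Lrig1, Hopx and Mex3a had ratios below 0, unlike Lrig1 and Hopx over the whole libraries. The log2 ratio was -0.20 (-0.51 to 0.12) for Lrig1, -0.12 (-0.51 to 0.27) for Hopx and -0.51 (-1.12 to 0.07) for Mex3a, against a median of 0.04 over 7808 genes. Bmi1 had a ratio of 0.35 (-0.21 to 0.92). Each of these intervals included 0, so neither a difference nor its absence was shown. With other clusterings the ratio reached -0.99 for Mex3a and -0.59 for Lrig1 with all variable genes kept, and 0.74 for Bmi1 at resolution 1.2. Mex3a had ratios below 0 in all 6 classes with at least 4 UMIs in each library, from -0.02 (-1.63 to 1.37) in mitotic-like to -1.15 (-2.84 to 0.15) in S phase-like cells, each with an interval that included 0.

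Outside the stem-like cells, the intervals excluded 0 for Lrig1 in Paneth-like cells and for Lrig1 and Hopx in the unnamed clusters. All others included 0, and how often the intervals of other genes excluded 0 there was not computed. Paneth-like cells had 17.2 CPM (14.2 to 20.6) of Lrig1 in WT and 25.9 CPM (21.0 to 31.6) in TNFAIP8-/- cells, a log2 ratio of 0.60 (0.19 to 0.997). The median over 6988 genes in these cells was 0.49, so Lrig1 was near it. In the unnamed clusters, 9 WT and 16 TNFAIP8-/- UMIs of Hopx gave 2.27 and 8.25 CPM, a log2 ratio of 1.83 (0.60 to 3.23). For Lrig1, 24 and 26 UMIs gave 6.04 and 13.4 CPM, a ratio of 1.15 (0.29 to 2.01), and the median over 7409 genes was 0.09. Both genes had higher values in TNFAIP8-/- cells of each of the unnamed clusters, with intervals that included 0 for Hopx in the one led by Akr1c19 and for Lrig1 in the one led by Slc40a1. Hopx had 1.36 and 5.47 CPM in the one led by Slc40a1 and 4.87 and 16.8 CPM in the one led by Akr1c19, and Lrig1 had 6.45 and 11.6 CPM and 4.87 and 18.9 CPM. These levels stayed below those of the stem-like cells in both libraries. The lymphocyte markers in the unnamed clusters summed to 190.3 CPM in WT and 137.7 CPM in TNFAIP8-/- cells, and mitochondrial genes took 9.49% and 12.4% of their UMIs, whose part in these ratios was not tested.

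**Figure D4:**
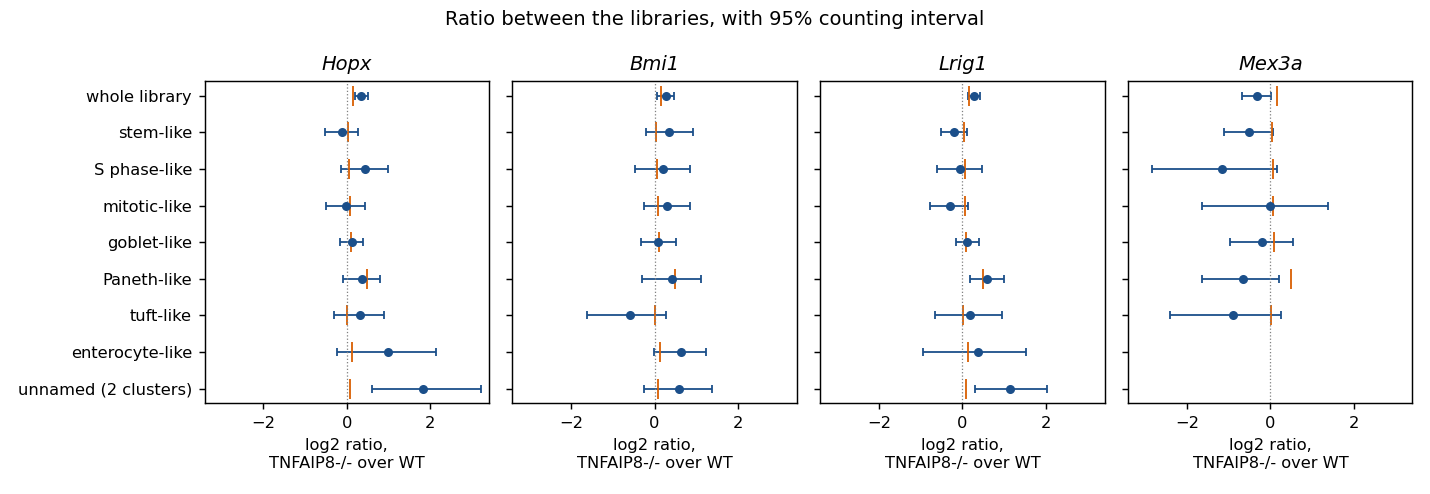
Log2 ratio of TNFAIP8-/- over WT (x axes) for each gene in the whole libraries and by cell class, with 95% counting intervals and an orange tick at the median over all genes with at least 50 UMIs there. Points with under 4 UMIs in a library are left out. In stem-like cells the ratios of Lrig1 (-0.20), Hopx (-0.12) and Mex3a (-0.51) had intervals that included 0. Hopx in the unnamed clusters was at 1.83 on 9 WT and 16 TNFAIP8-/- UMIs.

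The share of thinned cells with a UMI differed by 0.999 points (-0.263 to 2.34) for Hopx, 0.189 points (-0.938 to 1.39) for Bmi1 and 0.7002 points (-0.658 to 2.13) for Lrig1 between TNFAIP8-/- and WT cells. These intervals included 0. After thinning to 6000 UMIs, which left 2093 WT and 1175 TNFAIP8-/- cells, the differences were 2.58, 1.64 and 3.35 points, above the upper bounds at 3000 UMIs. For Mex3a the share was 1.79% in WT and 0.997% in TNFAIP8-/- cells, -0.796 points (-1.41 to -0.129). Over all possible draws, however, the expected shares of Mex3a were 1.62% and 1.39%, a difference of -0.224 points, so no direction was read from the single draw.

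Related genes and partners were described by lists, with log2 ratios over whole libraries and the same distance of 0.5 from the all-gene median. Of all 11665 genes with at least 50 UMIs, 6.22% were past it upwards and 8.51% downwards. Of 8 other genes reported to mark reserve or slowly cycling crypt cells, 6 had at least 50 UMIs. None was past the distance upwards, and Dclk1 (-0.78) and Ly6a (-2.82), which encodes Sca-1, were past it downwards. Ly6a, which the paper counts among fetal-like markers, had 566.7 CPM in WT enterocyte-like cells against 36.4 CPM in WT stem-like cells. The paper reports more Ly6a by RT-PCR in TNFAIP8-/- enterocytes and ileum, and more epithelial Sca-1 by flow cytometry and staining. From its single-cell data it reports fewer fetal-like cells in TNFAIP8-/- mice. Why the direction of Ly6a here differs from those other measures was not tested. Dclk1 is also a tuft cell gene and had 614 CPM in WT tuft-like cells against 1.58 CPM in WT stem-like cells. Msi1 (0.65) had the highest ratio, and its levels were highest in the stem-like class. Sox9 (0.55) had 241.3 and 274.7 CPM in stem-like and 245.7 and 247.8 CPM in tuft-like cells of WT and TNFAIP8-/- mice, respectively. Tert, the catalytic subunit of telomerase, had 1 UMI in both libraries together, and Clu 5 UMIs in WT and 4 in TNFAIP8-/- cells, so neither could be followed. The list median was 0.10.

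Of the paralogs, Mex3c, with 833 UMIs in WT and 861 in TNFAIP8-/- cells, was past the distance with a log2 ratio of 0.72 (0.58 to 0.86), in contrast to the ratio of Mex3a below 0. Mex3b was at 0.64 on 43 and 42 UMIs, and Mex3d at 0.26. Among the paralogs of Lrig1, Lrig3 was at 0.63 and Lrig2 at 0.17, both within the distance.

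Of the 11 ErbB receptors and ligands, 9 had at least 50 UMIs, 8 of them above the all-gene median and 1 below it, with a list median of 0.29. Only Egf was past the distance, with 26 and 50 UMIs and a log2 ratio of 1.60 (0.91 to 2.36), and its highest class was the Paneth-like cells. Hbegf was the lowest at -0.08. By pooled level, the highest class of 6 of the 9 genes was the enterocyte-like cells, where Lrig1 was lowest. They included Erbb2, which in WT had 33.7 CPM there but 40.0 CPM in the unnamed clusters. How often this class was the highest over all genes was not computed, so nothing was read from this count. Egfr itself was highest in the stem-like class, with 8.70 CPM in WT and 14.8 CPM in TNFAIP8-/- cells.

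The list of 17 Polycomb genes held partners of BMI1 and also its paralogs Pcgf1, Pcgf2, Pcgf3, Pcgf5 and Pcgf6, which are not partners. All of the list had at least 50 UMIs, with 9 above and 8 below the all-gene median and a list median of 0.20. Pcgf2, a paralog of Bmi1 that can take its place in the complex, was past the distance at 0.80 (0.58 to 1.011), and Phc2 was lowest at -0.09. The stem-like class had the highest pooled level for 7 of them, and how often it did over all genes was not computed. Cdkn2a, the locus that BMI1 represses, had 67 WT and 18 TNFAIP8-/- UMIs and a ratio of -1.19 (-2.06 to -0.45). Its UMIs lay mainly in enterocyte-like cells, with 10.7 and 6.39 CPM, and none was found in stem-like cells, where 3 UMIs would have given 1.187 and 1.203 CPM. Of the partners of HOPX, Hdac2 was at 0.61 and Srf at 0.15.

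The 4 crypt base markers compared, Lgr5 (0.53), Ascl2 (0.65), Smoc2 (0.44) and Olfm4 (0.08), were all highest in the stem-like class and within the distance from the all-gene median. Within stem-like cells of WT and TNFAIP8-/- mice, the levels were 189.5 and 192.5 CPM for Lgr5 and 67.6 and 67.0 CPM for Ascl2. They were 231.8 and 201.3 CPM for Smoc2 and 36.0 and 27.3 CPM for Olfm4.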

How the data were processed

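The authors prepared 1 Chromium Single Cell 3′ v2 library per genotype from ileal epithelial cells of 3 mice, used Cell Ranger with the mm10 reference, and deposited raw UMI counts per gene and cell, which were analysed without further normalization between libraries. Labels and methods name different digestion enzymes, alike for both libraries. Cells were clustered with Seurat 5.3.0 (R 4.3.3) on log-normalized counts, with 532 variable genes, 14 principal components and a resolution of 0.8. The 4 genes and 117 genes of the authors' genotype comparison were kept out of the clustering, and none of that comparison's values was used. A cluster was named from the marker list with the highest mean z-score. At least 3 listed markers had to be found in at least 10% of its cells, at 1.5 times the share of other cells. At least 1 had to be among its 10 leading genes, and no other list could have more there. For S phase-like and mitotic-like names, leading markers of both lists and of the stem list counted together. At resolution 1.2, with vst and with all variable genes kept, a cluster led by Lgr5 was named mitotic-like in this way. The condition of at least 1 leading marker, and the joining of T and B cell markers into 1 class, were set after the clusters had been seen. Scrublet (Scanpy 1.11.5) called 15 WT and 3 TNFAIP8-/- cells, too few to have worked, so no doublet was removed and leaving out the 5% highest scores was tried. Thinning and intervals used numpy 2.4.6 and scipy 1.17.1, and the ratios and thinning were tested on simulated data. Genes were named by lists of other reserve markers, paralogs, ErbB genes, Polycomb genes, HOPX partners and crypt base markers. Of these, genes with at least 50 UMIs that were highest, lowest or past the distance were named. The 5 most similar profiles of each of the 4 genes were added. The members and lists were chosen with earlier results of these data known.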

Additional observations from a re-analysis of the deposited data

Results flagged for a closer look

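In stem-like cells, the summed level of 10 mitotic genes was compared between cells with and without Mex3a after thinning to 3000 UMIs. The log2 ratio was -0.51 (-0.86 to -0.20) in WT, on 22 cells with Mex3a, and 0.43 (0.00 to 0.80) in TNFAIP8-/- cells, on 9 cells with Mex3a. The libraries thus moved in opposite directions. The difference between them was not tested, since each genotype has 1 library. With another draw of the thinning the ratios were -0.17 (-0.50 to 0.12) and 0.35 (0.00 to 0.67). Without thinning they were -0.08 (-0.19 to 0.04) on 48 cells and -0.11 (-0.23 to 0.02) on 38 cells, so the opposite direction was not seen with all UMIs.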

How the results depend on the processing

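Of 113 recomputed values, 87 stayed within the counting interval of the reported value (for shares of genes, within 1.5 times), 25 moved outside it, and 1 with an interval off 0 reversed. Values with intervals that included 0 also changed sign: the share difference of Bmi1 was -0.235 points at 2 or more UMIs, and the stem-like log2 ratio of Hopx was 0.07 with cells classed by their own marker scores. With the same makeup of classes the library log2 ratio was 0.20 for Hopx and 0.0826 for Lrig1, and with the same makeup of the 13 clusters, an alternative added after the data were seen, it was 0.16 and 0.0487. Scaling to the all-gene median gave 0.12 for Lrig1. The difference in the share of cells was larger without thinning (3.64 points for Hopx, 2.75 for Bmi1 and 5.28 for Lrig1) and after thinning to 6000 UMIs, which left 2093 WT and 1175 TNFAIP8-/- cells (2.58, 1.64 and 3.35 points). For Mex3a it was -0.038 points at 2 or more UMIs and reversed to 0.046 points with another draw. The cause was not tested. The stem-like level of Bmi1 over that of other cells was 2.49 times with variable genes chosen by vst and 2.31 times with all variable genes kept. That of Lrig1 was 3.07 times at resolution 1.2 and 2.92 times with vst. With all variable genes kept, the stem-like log2 ratio was -0.59 for Lrig1 and -0.99 for Mex3a, which was at -0.94 with vst, and that of Bmi1 was 0.74 at resolution 1.2. At these settings the stem-like class held fewer cells, and another cluster led by Lgr5 was named mitotic-like. The part of Hopx UMIs in goblet-like cells, added after the data were seen, was 13.7% in WT and 11.6% in TNFAIP8-/- cells at resolution 1.2, and 10.4% and 8.72% with vst. The share of genes past the distance upwards was 3.04% for genes with at least 500 UMIs and 16.6% for those with at least 1, and downwards 4.93% and 19.3%. No paired analysis was possible because each genotype has 1 library. Counts limit Mex3a most, with 105 UMIs in the TNFAIP8-/- library.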
